A study of Arabidopsis thaliana with 2 samples.

Results

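Plants that run short of phosphate save it by replacing phospholipids in their membranes with lipids that hold no phosphorus, the sulfolipid and galactolipids. The transcripts described here are the 10 Arabidopsis thaliana genes of that exchange: SQD1 and SQD2 for sulfolipid, MGD2, MGD3, DGD1 and DGD2 for galactolipids, and PLDZ2, NPC4, NPC5 and GDPD1 for phospholipid breakdown. They were chosen by locus identifier, with earlier results of these data known. Of the 10, 8 had a row in the deposited table, among 21825 loci with a value, and all 8 passed the filter used below, a mean RPKM (read density per transcript length, scaled to the library total) of at least 1 over both libraries. MGD3 (AT2G11810) and NPC5 (AT3G03540) had no row there and are given no level.

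RNA from whole seedlings was sequenced as 1 library from wild type (ecotype Col) and 1 from the ARF18 overexpression line named 35S-ARF18-OE-2 (ARF18-OE below), in the same ecotype. ARF18 belongs to the auxin response factors, which bind auxin response elements, and the 35S in the line's name is that of a viral promoter active in most plant tissues. The labels give an age of 7 days in one field and, in another, 4 days in darkness on 1/2 MS medium followed by 7 days in white light, and name no phosphate treatment. The overexpression group is a single transgenic line, and neither the number of plants per library nor separate cultures are stated. Since each group is 1 library, no genotype test or replicate check could be made, and each difference is one between these libraries. The libraries held 7059226 and 6824188 counted reads, and ARF18 (AT3G61830), the overexpressed gene, was at 97 counts in wild type against 472 in ARF18-OE.

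In leaves the galactolipids monogalactosyldiacylglycerol and digalactosyldiacylglycerol build the thylakoid membrane, and sulfolipid is its minor acidic lipid. Under phosphate starvation, digalactosyldiacylglycerol made at the outer chloroplast envelope moves to membranes outside the plastid, while phospholipases free diacylglycerol from phospholipids. The MYB-type regulator PHR1 binds a short palindrome named P1BS in promoters of genes induced by phosphate starvation.

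The P1BS palindrome, GNATATNC, was searched on the RefSeq TAIR 10.1 genome between 250 bases before and 50 bases after each annotated gene start. It was found in 6 of the 10 genes, against 6.25% of 27443 nuclear protein-coding promoters of the same length. The matches are shown because they are what most of these genes share in sequence, read along the gene's strand with the palindrome in capitals and 10 bases on each side. SQD1 had its match 14 bases after the start (chr4:15935377-15935404, plus strand). MGD2 had 2 matches, 14 bases before (chr5:6896439-6896466, plus strand) and 37 bases after the start (chr5:6896490-6896517). DGD1 had its match 40 bases after the start (chr3:3684814-3684841, minus strand), NPC4 219 bases before it (chr3:845298-845325, minus strand) and PLDZ2 180 bases before it (chr3:1635004-1635031, plus strand). GDPD1 had 2 matches, 127 bases (chr3:350120-350147, minus strand) and 63 bases before the start (chr3:350056-350083).
SQD1: gaataagtaaGAATATGCtttgggcata
MGD2, before the start: atatactactGAATATTCttttgttaat
MGD2, after the start: cgaggaccttGAATATTCgaatcttttc
DGD1: ttcgattccaGCATATTCctaagttaaa
NPC4: ttgaaaaagtGAATATTCttgacacaga
PLDZ2: taaccaagttGCATATACacggcagggt
GDPD1, far match: agaggggaggGAATATCCaaaagggata
GDPD1, near match: gcgatccaaaGAATATTCcaagatccca

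With the window widened to 1000 bases before the start, a choice made after seeing the data, 8 of the 10 genes had a match, against 20.9% of promoters. SQD2 gained 1 at 340 bases before the start (chr5:90440-90467, minus strand), and NPC5 1 at 848 bases (chr3:849128-849155, minus strand). PLDZ2 and GDPD1 then had 4 matches each, and MGD2 and NPC4 3 each. DGD2 and MGD3 had no match in either window. A match is a string of letters and not a measured binding site.
SQD2: tatgtgaagcGAATATTCattggaatag
NPC5: aggctgttagGGATATGCaacctcattt

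The 250 bases before the start of GDPD1, with its 2 matches in capitals, and of DGD2, with none, show both cases side by side. They lie on the minus strand at chr3:350011-350260 and chr4:240580-240829.
GDPD1: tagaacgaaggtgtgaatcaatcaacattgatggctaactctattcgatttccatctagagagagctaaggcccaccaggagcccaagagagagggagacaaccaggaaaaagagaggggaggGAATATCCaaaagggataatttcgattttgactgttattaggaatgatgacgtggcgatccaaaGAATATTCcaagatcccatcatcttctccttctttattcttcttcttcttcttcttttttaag
DGD2: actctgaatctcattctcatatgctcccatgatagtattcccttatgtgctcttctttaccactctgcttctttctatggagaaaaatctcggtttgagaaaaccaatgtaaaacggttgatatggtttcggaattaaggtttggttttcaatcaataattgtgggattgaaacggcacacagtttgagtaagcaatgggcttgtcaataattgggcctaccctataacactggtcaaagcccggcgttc

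The auxin response element TGTCTC, searched on both strands in the shorter window, was present in 1 of the 10 genes, GDPD1, at 155 bases before the start, against 14.2% of promoters. Its wider form TGTCNN, which includes TGTCTC, was present in 9 of the 10 and in 81.3% of promoters. In the 1000-base window TGTCTC was present in SQD1 and GDPD1, 2 of 10, against 41.9%.

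**Figure D1:**
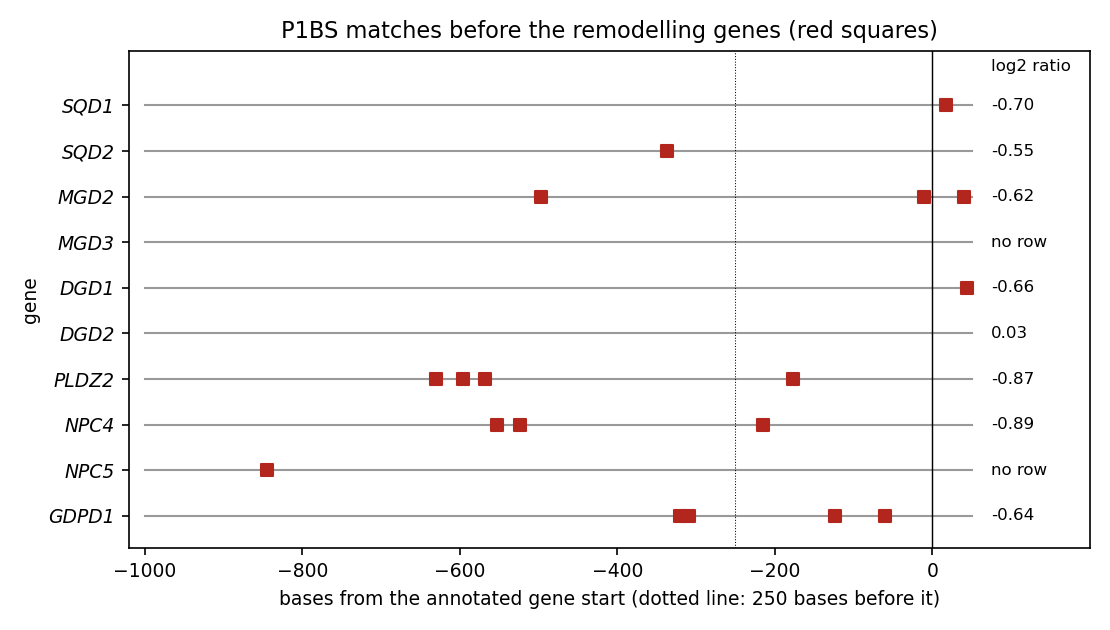
P1BS matches (red squares) from 1000 bases before to 50 bases after the annotated start of each gene, with the log2 ratio of RPKM + 1 (ARF18-OE over wild type) at the right. In this window, chosen after seeing the data, DGD2 (0.03) and MGD3, with no row in the table, have no match. SQD2 (-0.55) also has none within 250 bases before the start (dotted line). A link between matches and ratios was not tested.

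Of the 8 measured genes, 7 were lower in the ARF18-OE library, where 46.2% of all expressed genes had a negative log2 ratio, and DGD2 was level. Summed over the 8 genes, RPKM was 187 in wild type against 119 in ARF18-OE. On the main scale, the log2 ratio of RPKM + 1, ARF18-OE over wild type, which understates differences of low genes, their median was -0.65, beside 0.03 over 15083 nuclear genes that passed the filter. At least 1.5-fold lower on this scale were 6 of the 8, against 4.71% of all these genes, and none was 1.5-fold higher, against 6.24%. The threshold fell between MGD2 at 1.53-fold and SQD2 at 1.46-fold. None was 2-fold lower, against 0.663%. The 95% exact conditional binomial interval of the count ratio, which covers counting error only, lay below 1 for 7 of the 8, against 15.6% of all genes, and above 1 for none, against 18.7%.

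SQD1 (AT4G33030), which makes the sulfur-containing sugar nucleotide UDP-sulfoquinovose in the chloroplast, lies on chromosome 4 from 15935373 to 15937833. It had 681 counts in wild type against 400 in ARF18-OE, an RPKM of 52.4 and 31.9. The count ratio, scaled to the library totals, was 0.608 (0.536 to 0.688), or 1.65-fold lower.

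SQD2 (AT5G01220), which joins that sugar to diacylglycerol to give sulfolipid, lies on chromosome 5 from 86543 to 90117. It had 491 counts in wild type against 321 in ARF18-OE, an RPKM of 35.6 and 24.0. Its count ratio was 0.676 (0.586 to 0.780). Both sulfolipid genes were lower, and SQD1 stood at 1.47 times the RPKM of SQD2 in wild type and 1.32 times in ARF18-OE. The ratio of their count ratios was 0.898, with an exact conditional interval of 0.742 to 1.09, so a difference between them was not detectable at this depth.

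Among galactolipid genes, MGD2 (AT5G20410) encodes a monogalactosyldiacylglycerol synthase of the outer chloroplast envelope. It lies on chromosome 5 from 6896463 to 6898783 and had 48 counts against 26, an RPKM of 3.78 in wild type against 2.12 in ARF18-OE. The count ratio was 0.560, with an interval of 0.334 to 0.921 that reached near 1 at this depth. MGD1 (AT4G31780), the synthase of the inner envelope and the main one in leaves, had 6 counts in each library, too few to compare with MGD2.

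DGD1 (AT3G11670) and DGD2 (AT4G00550) add the second galactose, DGD1 for most of the lipid in well-fed plants and DGD2 mainly under phosphate starvation. DGD1, on chromosome 3 from 3680866 to 3684871, had 70 counts in wild type against 36 in ARF18-OE, an RPKM of 3.69 and 1.96 and a count ratio of 0.532 (0.346 to 0.806). DGD2, on chromosome 4 from 237901 to 240579, had 123 and 122 counts, an RPKM of 9.21 and 9.45 and a count ratio of 1.03 (0.792 to 1.33). DGD2 was the 1 measured gene with a positive log2 ratio, 0.03, equal to the median of all genes. Relative to DGD2, DGD1 was lower in the ARF18-OE library: its RPKM was 0.401 of that of DGD2 in wild type against 0.208 in ARF18-OE, a ratio of count ratios of 0.519 (0.313 to 0.853).

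Levels of DGD1, DGD2 and SQD2 may be understated. Each has 2 RefSeq transcripts but 1 row in the table, and 62.9%, 73.8% and 86.8% of their 50-base words were shared by both transcripts. Among nuclear loci with 1 row, those with 2 or more RefSeq transcripts had a median of 43 counts over both libraries, against 164 for those with 1 transcript, and the part of the counting in this was not tested. No 50-base word of the 10 genes occurred in a transcript of another locus.

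**Figure D2:**
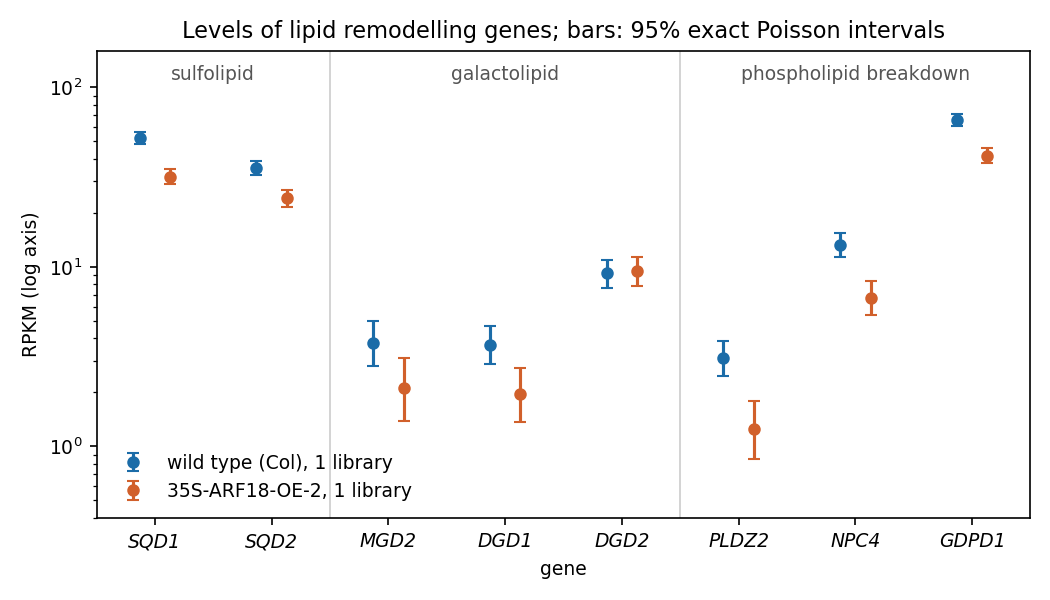
RPKM (log axis) of the 8 measured genes in the wild-type (blue) and ARF18-OE (orange) library, 1 library each, with 95% exact Poisson intervals as bars. The orange point lies below the blue one for each gene except DGD2 (9.21 and 9.45).

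Among genes of phospholipid breakdown, PLDZ2 (AT3G05630) encodes a phospholipase D that cleaves the head group to leave phosphatidate. It lies on chromosome 3 from 1635194 to 1640357, and is the longest of the 8 at 3505 bases in the deposited table. PLDZ2 had 77 counts in wild type against 30 in ARF18-OE, an RPKM of 3.11 and 1.25, the lowest levels of the 8 in both. Its count ratio, 0.403 (0.255 to 0.622), or 2.48-fold lower, was the lowest of the 8, whereas on the RPKM + 1 scale it was 1.82-fold lower.

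NPC4 (AT3G03530), a non-specific phospholipase C that releases diacylglycerol, had 176 counts in wild type against 86 in ARF18-OE, an RPKM of 13.3 and 6.71. Its count ratio was 0.505 (0.386 to 0.658), and its log2 ratio of -0.89 was the lowest of the 8 and at position 146 from the bottom of the 15083 genes. NPC4 lies on the minus strand of chromosome 3 from 842499 to 845096, between NPC3 (837805 to 840645) and NPC5 (846221 to 848297), with 1853 and 1124 bases between them. NPC3, a family member next to it, had 628 and 565 counts and a count ratio of 0.931 (0.829 to 1.04). The ratio of count ratios of NPC4 to NPC3 was 0.543 (0.405 to 0.726), so NPC4 was lower relative to its neighbour.

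GDPD1 (AT3G02040), a glycerophosphodiester phosphodiesterase that splits deacylated phospholipids into glycerol-3-phosphate and an alcohol, lies on chromosome 3 from 348167 to 350010. It was the most abundant of the 8 per length, with 708 counts in wild type against 434 in ARF18-OE, an RPKM of 65.8 and 41.7. Its count ratio was 0.634 (0.561 to 0.716).

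The order of levels was nearly the same in both libraries. GDPD1, SQD1 and SQD2 stood first in that order in each, and MGD2, DGD1 and PLDZ2 last, with neighbouring Poisson intervals among these last 3 overlapping in both libraries. NPC4 (13.3) stood above DGD2 (9.21) in wild type with separate intervals. In the ARF18-OE library DGD2 (9.45) stood above NPC4 (6.71) with overlapping intervals.

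In the authors' deposited table, 6 of the 8 transcript models were lower at an FDR of 0.05 or less, against 7.17% of 24295 models. That share covers all deposited models, without the RPKM filter that the 8 genes passed. The exceptions in the authors' deposited table were MGD2, with an FDR of 0.0908, and DGD2, with 0.936. The lowest FDR values there were 4.16e-14 for SQD1 and 1.45e-12 for GDPD1. These values come from reads of 1 library per genotype, so they compare the libraries.

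Across all genes the ratio differed with transcript length. The median log2 ratio of the length bin in which each gene falls, among 50 bins, ran from 0.02 for GDPD1 (1525 bases) to -0.35 for PLDZ2. After subtracting bin medians for length and then GC content, the median of the 8 was -0.50, beside 0.00 for all genes, and 7 were again negative, against 49.9% of all genes. Adjusted values were -0.85 for NPC4, -0.69 for SQD1, -0.59 for MGD2, -0.55 for GDPD1, -0.45 for PLDZ2, -0.44 for SQD2, -0.43 for DGD1 and 0.07 for DGD2. NPC4, SQD1 and MGD2 remained at least 1.5-fold lower, 3 of 8 against 4.67% of all genes. PLDZ2, DGD1 and GDPD1 were no longer 1.5-fold lower after this step. With length alone adjusted, GDPD1 (-0.66) was 1.5-fold lower and MGD2 (-0.58) was not, so these 2 genes lie at the threshold.

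**Figure D3:**
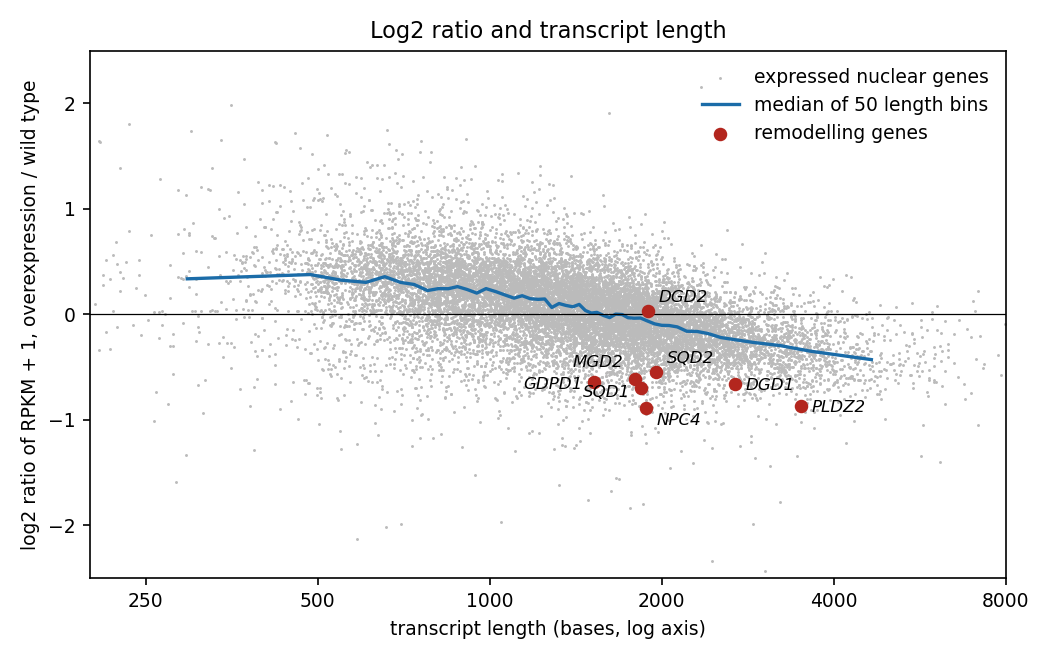
Log2 ratio of RPKM + 1 (ARF18-OE over wild type) against transcript length in bases (log axis) for expressed nuclear genes (grey; 108 lie outside the axes), the median of 50 length bins (blue line) and the 8 remodelling genes (red). The red points other than DGD2 lie below the line, with PLDZ2 (-0.87) and DGD1 (-0.66) where the line itself is negative.

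Relatives of the phospholipases and of GDPD1 and MGD2 were read beside these genes. Of 21 such relatives, 20 had a row and 13 passed the filter. MGD1 was not among the 13, so they hold no relative of MGD2. Of these 13, 1 was at least 1.5-fold lower, against 4.71% of all expressed genes, and none 1.5-fold higher, against 6.24%. A negative log2 ratio was found in 11 of the 13, against 46.2%, and 5 had an interval below 1, against 15.6%. The median log2 ratio of the 13 was -0.19, or 0.0038 after the adjustment. PLDBETA1, a phospholipase D of the calcium-dependent kind, had 342 and 185 counts and a ratio of 0.560 (0.465 to 0.671), with a log2 ratio of -0.76, or -0.41 adjusted. NPC6 had 0.749 (0.612 to 0.914), PLDGAMMA1 0.768 (0.666 to 0.884) and NPC2 1.41 (0.983 to 2.04). PLDP1, the other phospholipase D of the zeta kind, had 217 and 180 counts and a ratio of 0.858 (0.700 to 1.05), and the ratio of count ratios of PLDZ2 to PLDP1 was 0.470 (0.284 to 0.763). In all, 6 such pairs were compared, chosen after seeing the data. The other 2, MGD2 against MGD1 and GDPD1 against GDPD2, had intervals of 0.131 to 2.27 and 0.0818 to 4.60, too wide at this depth to show a difference.

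**Figure D4:**
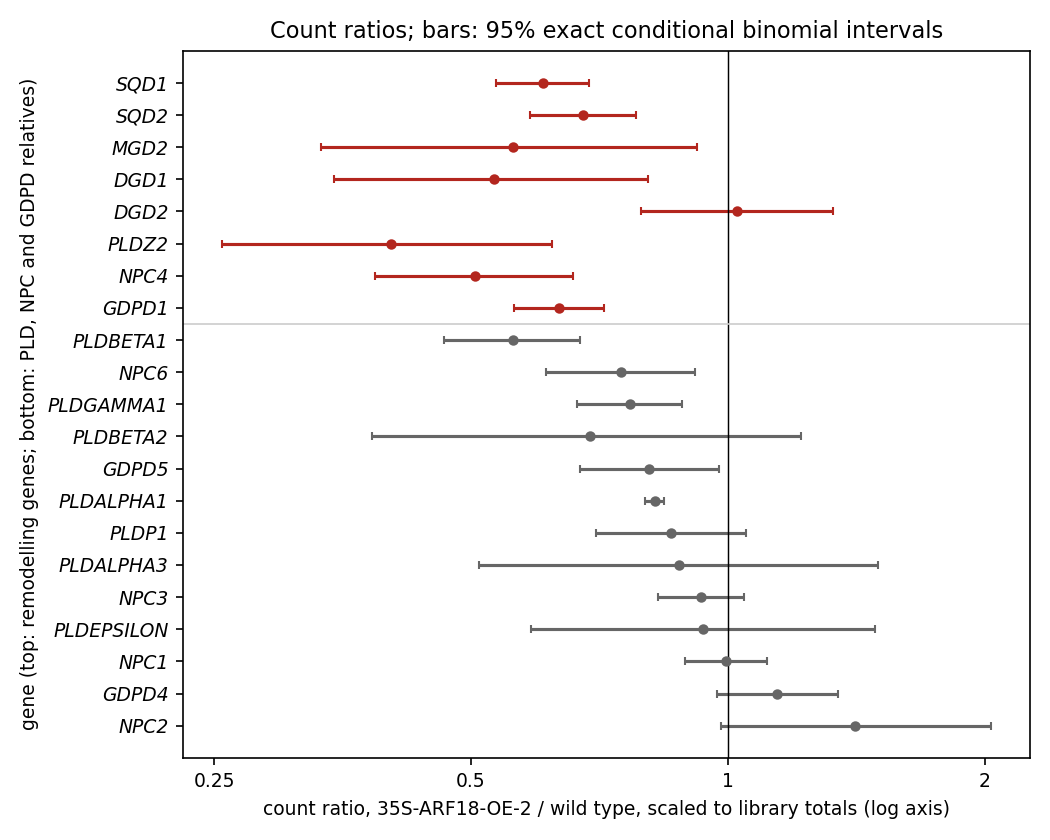
Count ratios (ARF18-OE over wild type, scaled to library totals, log axis) of the 8 remodelling genes (red) and of the 13 relatives past the filter (grey), with 95% exact conditional binomial intervals. Of the red intervals, 7 lie wholly below 1 and that of DGD2 spans it, while 5 of the grey intervals lie wholly below 1.

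Genes that make and move thylakoid lipids in well-fed plants had a median near that of all genes. Of 19 listed, 14 passed the filter, with a median log2 ratio of -0.01 (-0.08 adjusted). The interval of the count ratio lay below 1 for 3 genes, against 15.6% of all genes, and above 1 for 1 gene, against 18.7%. At least 1.5-fold lower was 1 of the 14, against 4.71%, and none was higher, against 6.24%. After the adjustment none was 1.5-fold apart. The gene lower before adjustment was UGP3 (AT3G56040), a plastid UDP-glucose pyrophosphorylase that supplies the substrate of SQD1. UGP3 had 148 counts in wild type against 80 in ARF18-OE, a ratio of 0.559 (0.421 to 0.739) and a log2 ratio of -0.70, or -0.40 adjusted. PGP1, of phosphatidylglycerol synthesis, had a ratio of 1.25 (1.02 to 1.53), and the intervals of the lipid transporter subunit TGD2 and the desaturase gene SSI2 included 1.

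Of 17 phospholipid synthesis genes, 12 passed the filter with a median of 0.02, and of 7 lipid phosphatase genes, 5 passed with a median of 0.13, and none of either list was 1.5-fold apart. PIS1, of phosphatidylinositol synthesis, had a ratio of 1.25 (1.09 to 1.44), and LPPgamma 1.19 (1.03 to 1.37).

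Other genes of phosphate starvation were lower in part. Of 19 listed, 17 passed the filter, with a median of -0.38, or -0.48 adjusted. Of the 17, 5 were at least 1.5-fold lower, against 4.71% of all expressed genes, and none higher, against 6.24%. After the adjustment 5 were again lower, not all of them the same genes, against 4.67%. PHO2, which targets phosphate transporters for breakdown, had 1798 and 885 counts and a ratio of 0.509 (0.469 to 0.552). The log2 ratio of PHO2 was -0.95, but -0.50 adjusted, no longer 1.5-fold lower. The pyrophosphatase gene PS2 had 211 and 89 counts and a ratio of 0.436 (0.337 to 0.562). Its adjusted log2 ratio was -1.26. IPS1, a non-coding RNA that sequesters a microRNA of phosphate signalling, had 101 and 54 counts, and SPX3, of the SPX-domain phosphate sensors, 11 and 4 with an interval of the ratio that included 1 (0.0874 to 1.27). Others of the list were not lower before adjustment. AT4, a relative of IPS1, had 2391 and 2354 counts and a ratio of 1.02 (0.962 to 1.08), with an adjusted log2 ratio of -0.25. The phosphate transporter gene PHT1;1 had 1511 and 1646 and a ratio of 1.13 (1.05 to 1.21), with an adjusted log2 ratio of 0.23. PHR1 itself (113 and 119 counts, chosen here because its motif was searched) had a ratio of 1.09 (0.835 to 1.42). P1BS matches were also counted over expressed genes other than the 10 lipid genes, with the phosphate starvation list included. The median log2 ratio was 0.03 for the 13836 genes with none in the shorter window and 0.03 for the 877 with 1. The 47 genes with 2 or more matches had a median of 0.02 (-0.04 adjusted). Of these 47 genes, 12.8% were 1.5-fold lower and 2.13% higher, beside 4.49% and 6.0% of those with none. In the 1000-base window the 435 genes with 2 or more matches were 1.5-fold lower and higher in equal shares, 6.67% each, beside 4.49% and 5.89% of those with none.

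**Figure D5:**
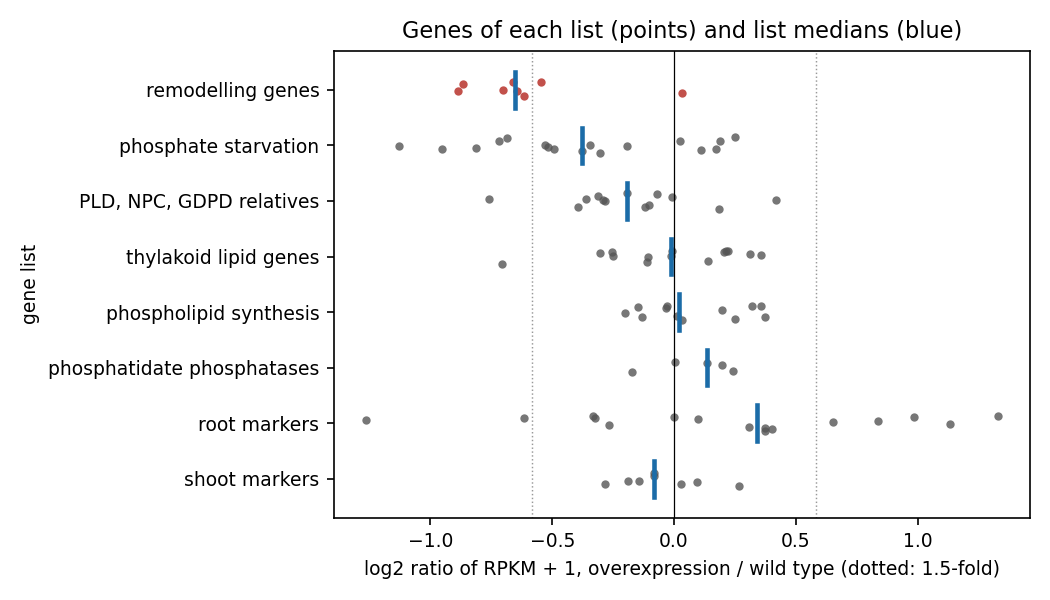
Log2 ratio of RPKM + 1 for each expressed gene (points) of 8 lists, with list medians in blue and 1.5-fold marked by dotted lines. The remodelling genes have the lowest median (-0.65), followed by the other phosphate starvation genes (-0.38), and the root markers the highest (0.34).

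Organ markers were read beside these results, since whole seedlings mix roots and shoots, and in such bulk samples fewer cells of a type and less RNA per cell cannot be told apart. Of 17 root markers, 16 passed the filter, with a median of 0.34 (0.23 adjusted). Of these, 5 were at least 1.5-fold higher, against 6.24% of all genes, and 2 lower, against 4.71%. After the adjustment, 4 were higher and 1 lower. The largest log2 ratios were 1.33 for the aquaporin gene TIP2;3, 1.13 for WOX5 of the quiescent centre, 0.98 for WER and -1.27 for the root hair gene LRX1. Root hair genes of the list went both ways. COBL9 (-0.33) was also lower, while EXPA7 (0.65), EXPA18 (0.38) and RHD6 (0.38) were higher, RHD6 with an interval of the count ratio that included 1. WOX5 rested on 16 counts in wild type against 40 in ARF18-OE, and WER on 5 against 15. The summed RPKM of the list was 10596 in wild type against 8973 in ARF18-OE, most of it PYK10 (10247 and 8523). ESB1 had 0 counts in wild type against 2 in ARF18-OE. The 8 shoot markers had a median of -0.08 (-0.20 adjusted), none 1.5-fold apart, and a summed RPKM of 3530 and 3339. The part of organ proportions in the levels of the lipid genes was not tested.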

How the data were processed

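For each of 2 libraries of whole seedlings the authors deposited raw counts by transcript model and RPKM, with the genome build TAIR 10 per the submitters' processing notes. No source used here names the aligner, the counter or the strandedness. The deposited RPKM values matched those recomputed from counts, length and column sums within 3.23e-06 percent, and an RPKM of 0.01, written for a count of 0, was set to 0. The log2 ratio, p-value and FDR columns are the authors' own, per the file headers, from a test that is not named.

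Counts and RPKM were summed per locus. Nuclear loci with a mean RPKM of at least 1 were compared as log2 of RPKM + 1, and counts as ratios scaled to library totals (7059226 and 6824188) with 95% exact conditional binomial intervals. These intervals and the Poisson intervals of levels cover counting error only, and reads of 1 fragment pool are not independent plants. A count-model test was not fitted because each genotype had 1 library. Adjusted values had the medians of 50 length bins, then of 50 GC bins, subtracted; GC was known for 15069 genes. Coordinates and sequences come from the RefSeq TAIR 10.1 genome, used by itself since the deposited table holds none. Alternatives were other pseudocounts, scalings, filters, thresholds and the adjustment. Steps were tested on simulated data.

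The 10 genes and the other lists were chosen with earlier results of these data known. Named genes are the 10, ARF18 and, per list, some or all of the 4 members with the largest absolute log2 ratios. Others (MGD1, NPC3, PLDP1, GDPD2, PHR1, AT4, PHT1;1, PYK10, ESB1, COBL9, EXPA7, EXPA18, RHD6) were named for a comparison after values were seen. G3Pp1, GDPD6 and PECP1, described at the end, were also picked after values were seen. The work used Python, numpy, pandas, scipy and matplotlib (versions 3.11.15, 2.4.6, 2.3.3, 1.17.1 and 3.10.9).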

Additional observations from a re-analysis of the deposited data

How the results depend on the processing

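No paired analysis was possible because 1 library stood for each genotype. The median log2 ratio of the 8 genes, -0.65, was -0.43 with a pseudocount of 5 RPKM and -0.50 adjusted for length and GC content; under the other settings it lay between -0.76 and -0.55. The count of genes at least 1.5-fold lower, 6, was 3 with a pseudocount of 5 RPKM, 3 of the 5 genes left at a mean RPKM of at least 5, 3 adjusted for length and GC content (SQD1, MGD2, NPC4), 3 adjusted for length alone (SQD1, NPC4, GDPD1), and 0 at 2-fold. No gene was 1.5-fold higher under any setting run. SQD1, SQD2, MGD2, DGD1, PLDZ2, NPC4 and GDPD1 were negative under each setting that gave them a value, PLDZ2 between -1.31 and -0.38. DGD2 lay between 0.000033 (median-centred) and 0.10 (adjusted for length), never below 0 in the settings run. Trimmed mean of M values and median-centred scaling moved the median of all genes by -0.02 and -0.03. At 26 to 77 counts per library, MGD2, DGD1 and PLDZ2 have wide counting intervals.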

Other observations

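Genes next to this pathway were picked after their values were seen. G3Pp1, a glycerol-3-phosphate transporter gene of the phosphate starvation list, had 486 counts in wild type against 287 in ARF18-OE, a ratio of 0.611 (0.526 to 0.708). GDPD6, a relative of GDPD1 under the RPKM filter, had 9 counts in wild type against 1 in ARF18-OE, a ratio of 0.115 (0.00262 to 0.829). PECP1, a phosphatase of phosphocholine and phosphoethanolamine, had 3 counts in wild type against 0 in ARF18-OE, at which no fold is given.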
